A study of Mus musculus with 8 samples.

Results

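The cytosolic ribosomal protein genes encode the protein part of the ribosome, and their transcription start sites (TSSs) were described here in wild-type mouse embryonic stem cells and in cells lacking PWWP2A/B. The genes were taken from the GENCODE M21 annotation as protein-coding genes whose symbol starts with Rpl or Rps and a number, without the Rps6k kinases and Rps19bp1, and with Rplp0, Rplp1, Rplp2 and Rpsa. This rule gave 91 genes of 21951 protein-coding genes, and no measured value entered it. Of the 91 genes, 77 are the ordinary ribosomal protein genes (46 of the large subunit and 31 of the small subunit), 7 are paralogues such as Rpl22l1, and 7 are copies such as Rps12-ps3, with symbols of pseudogene or retrogene type, that the annotation lists as coding. CAGE-seq captures the 7-methylguanosine cap of RNA and reads the cDNA from its 5' end. Each read is taken to begin at a transcription start site. Nuclear RNA was profiled in E14, a wild-type embryonic stem cell line (3 libraries), and in E14 cells with a double knockout of PWWP2A/B (DKO), as clone A1 (2 libraries) and clone C7 (3 libraries), all grown in serum with LIF. PWWP2A and its paralogue PWWP2B bind H3K36me3, the histone mark of transcribed gene bodies, and are subunits of a histone deacetylase complex. The comparison of the lines asks whether start sites within genes depend on them.

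Ribosomal proteins are needed in matched amounts, and their mRNAs share a 5' terminal oligopyrimidine tract (TOP), which starts at a C next to the cap and goes on as a run of C and T. Through this tract their translation follows the activity of the mTOR pathway and of the cap-binding protein LARP1. Most other mammalian genes start at a purine that follows a pyrimidine, the YR initiator.

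The deposited tracks hold tag clusters, which are stretches of neighbouring start sites, 1 track for each line with its libraries merged. There were 32857 clusters in E14, 33005 in A1 and 32870 in C7. Each has a start and an end, a dominant TSS (its most used base) and an interquantile region, the stretch from quantile 0.1 to quantile 0.9 of the signal. The score of each cluster is 0, so no expression level was available, the depth behind a cluster is unknown, and no value has a spread between libraries. Differences between lines were therefore described without a test. The 95% Wilson intervals of shares cover the counting of genes or clusters only. Each clone is a single cell line, so that clone and genotype cannot be told apart within it. The embryonic stem cell genes Pou5f1, Nanog, Zfp42 and Esrrb had a cluster at an annotated start in all 3 lines, and Sox2 had 8, 8 and 9 clusters in E14, A1 and C7 but none within 100 bp of its annotated start. Among fibroblast genes, Postn had no cluster, Col1a2 had 1 internal cluster, and Thy1 and Col1a1 had 1 and 2 clusters at their starts in each line. Pwwp2a kept 1 start cluster in each line, with its dominant TSS at 43682027 on chromosome 11 in all 3, and Pwwp2b had no cluster in any line, so that cluster positions gave no check of the knockout.

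A cluster was assigned to a gene when its dominant TSS lay on the gene's strand from 500 bp upstream of the gene to its end. Clusters within 100 bp of the start of a coding transcript were called start clusters, and clusters within the gene but outside these windows were called internal. In each of the 3 lines, 79 of the 91 genes (86.8%, interval 78.4 to 92.3%) had a start cluster, against 44.9% of all protein-coding genes in E14 and A1 and 44.8% in C7, and 87 had a cluster of some kind. The principal cluster of a gene was the start cluster nearest to an annotated start. The median distance from its dominant TSS to that start was 12 bp in E14, close to the 13 bp of other coding genes, and it lay exactly at the annotated base in 14 genes, downstream in 36 and upstream in 29.

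No cluster was found in any line at Rpl3l, the muscle paralogue of Rpl3, or at the copies Rpl36-ps4, Rpl36a-ps1 and Rpl9-ps1. Genes with clusters but without a start cluster included Rpl12, Rpl24, Rpl35, Rpl39, Rpl7, Rps23 and Rps3a1. In each of these but Rpl12 the widest cluster of the gene lay 109 to 499 bp downstream of the annotated gene start and began with a TOP tract. Rpl35, for example, had its widest cluster 499 bp inside the annotated gene, with a whole width of 142 bp and an interquantile width of 14 bp in all 3 lines. Rpl12, a protein of the GTPase stalk base, was the exception. Its 9 clusters in E14 began with 1 at 165 bp upstream of the annotated start, none of them lay within 100 bp of it, and its widest, of 70 bp, lay in coding sequence at 1068 bp. Values for the widest cluster are given below beside those for the principal cluster.

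The bases at the dominant TSSs are shown first, because the TOP tract is read from them. Sequences were read from GENCODE M21 transcripts, or from RefSeq promoters of GRCm38.p6 where the transcript held fewer than 10 bases before the TSS, and at the 50 positions read from both sources the bases were the same in all 50. Each line gives 10 bases before the dominant TSS of the principal cluster in E14 and 15 bases from it, with the pyrimidines that run on from the TSS in capitals. The first set shows TOP starts from both subunits, the acidic stalk and the ubiquitin fusion gene Rps27a, with the longest run, at Rps24, among them.
Rps12: caccgccggcCTTTTCCCCTgccgc
Rps2: gcgcctccctCTTCTTCTTCTTCgg
Rps24: gtgagcggtcCTCTTTTCCTCCTCT
Rps27a: tcggatcttcCTTTCCgatccgcca
Rpsa: gccgcccgtcCTTTCgcgctacccg
Rpl6: tgccttagttCTCTTTCCCgtcttg
Rpl27a: gtgagctcctCCCTTTTCCCTTTCT
Rplp0: tgcggcccgtCTCTCgccaggcgtc
The second set shows 3 of the ordinary genes that did not start this way in E14, chosen like the other sets after their values were seen, where capitals again mark a run from the TSS.
Rpl3: cctggtcgctCTCTatctgcggcgt
Rpl5: gtgactccggTCTTTTTCCCCCTTa
Rplp1: gatcttttcctcagc
The Rplp1 line holds no bases before the TSS, since the dominant TSS is the first base of the annotated transcript. The third set shows 3 paralogues and 2 mitochondrial ribosomal protein genes, whose products work in the other ribosome of the cell.
Rpl22l1: caagcccgttCTCTTCCCacggctg
Rpl36al: cttccgctctgttcgtccctttcct
Rps27l: cctctatcccggaagttgctgaggg
Mrpl11: gtagttctttgcttctccgaggcga
Mrpl21: ggttcgcgctgcttccgcttccggt

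In E14, 58 of the 68 ribosomal protein genes that could be read in a transcript (85.3%, interval 75.0 to 91.8%) had their dominant TSS at a C followed by at least 4 pyrimidines, here called a TOP start. Over all protein-coding genes the share was 3.54%. The shares in the clones were 83.6% of 67 genes in A1 and 85.3% of 68 in C7, against 3.51% and 3.56% of all protein-coding genes. With the widest cluster of each gene in place of the nearest, 69 of 79 genes (87.3%) had a TOP start in E14. The pyrimidine run of the 58 genes counted from 5 to 17 bases with a median of 8, and the longest belonged to Rps24. The mitochondrial ribosomal protein genes had no TOP start among 62 genes and the proteasome genes none among 33 in E14, with upper interval bounds of 5.83% and 10.4%. Of the list of translation factors and other genes known for TOP mRNAs, 19 of 23 had one (82.6%). Eef1a1 and Eef2, the elongation factors, and Pabpc1, the poly(A)-binding protein, were among the 19, and Npm1, Btf3, Eif3l and Eif4b were the 4 without.

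The pyrimidines were not confined to the transcribed side. The base just before the dominant TSS was a pyrimidine in 67 of 69 ribosomal protein genes (97.1%) and in 90.9% of 9028 other coding genes. At positions -2 and -3 a pyrimidine stood in 82.6% and 70.6% of the ribosomal protein genes, against 57.8% and 46.2% of the others. The TSS base itself differed more, since a purine after a pyrimidine was found in 10.1% of the ribosomal protein genes and in 83.5% of the others. At position 2 a pyrimidine stood in 97.2% of the ribosomal protein genes against 49.4% of the others, and at position 6 still in 87.3% against 56.6%. Position 1 was C in 85.9%, and from position 2 to position 6 T was more frequent than C, with 76.1% at position 2 and 81.7% at position 4.

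**Figure D1:**
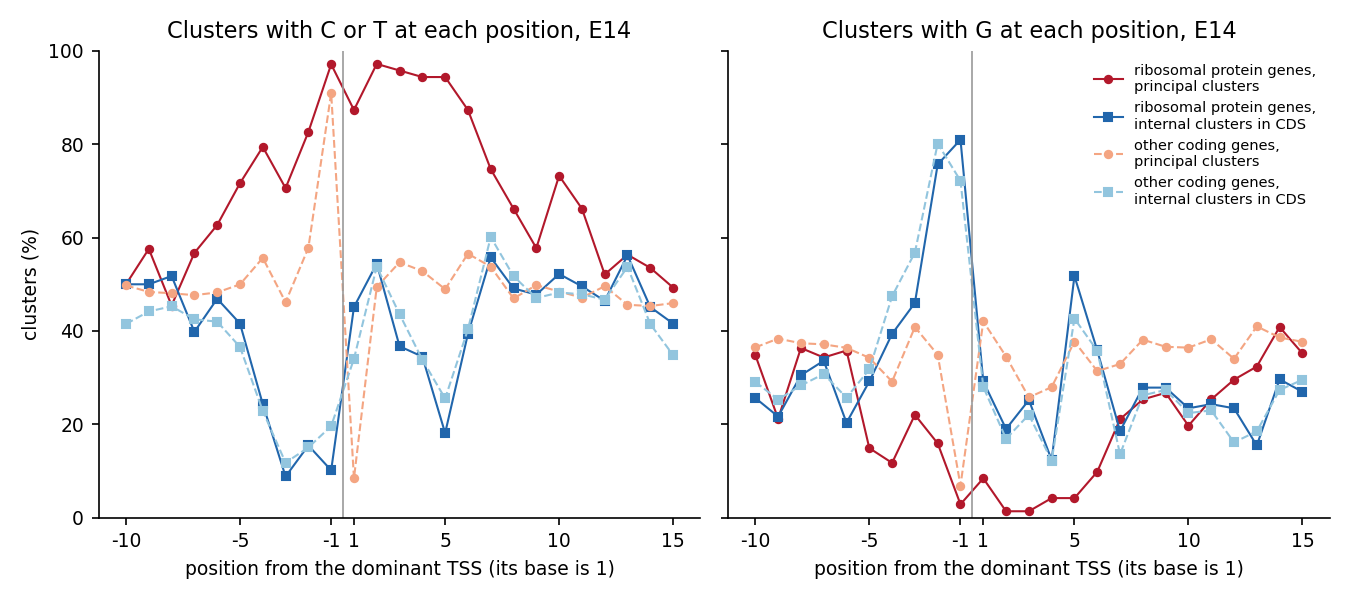
Share of E14 clusters (%, vertical axis) with C or T (left) or G (right) at each position from the dominant TSS, whose base is position 1 (horizontal axis), for principal clusters and for internal clusters in coding sequence (CDS) of the ribosomal protein genes and of other coding genes. Principal clusters of the ribosomal protein genes held C or T in 97.1% of genes just before the TSS and in over 94% at positions 2 to 5, whereas their internal clusters held G in 75.7% and 81.0% at the 2 positions before it.

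The 10 genes read without a TOP start were of several kinds. At Rpl3 the run ended after 4 bases, 1 short of the rule, and at Rpl5 a run of 14 pyrimidines began with T. Rplp1 had its dominant TSS at a G. For Rpl19 and Rpl21 the nearest cluster had its dominant TSS at an A, but the widest cluster, 248 and 255 bp into the annotated gene, had a TOP start. The paralogues Rpl36al, Rpl7l1 and Rps27l and the copy Rpl9-ps6 also had it at a G. Of the paralogues with a cluster, Rpl22l1 and Rpl39l had a TOP start, of 8 and 5 pyrimidines. At Rpl10l, a testis paralogue, the RefSeq promoter placed the dominant TSS at an A.

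The interquantile regions of the ribosomal protein genes were short within long clusters. In E14 the principal cluster had a median interquantile width of 7 bp (quartiles 4 and 19.5 bp, 79 genes) inside a whole cluster with a median of 104 bp, and the interquantile region took a median of 7.95% of the cluster. For the 9778 other coding genes the median was 29 bp, with quartiles at 14 and 43 bp, inside 53 bp, or 63.5% of the cluster. Whole clusters were thus longer, and the core that held most of the signal was shorter. An interquantile width of at most 10 bp was found in 63.3% of the ribosomal protein genes and 20.4% of the others. Mitochondrial ribosomal protein genes had medians of 24.5 and 61 bp for the interquantile region and the whole cluster, and proteasome genes 34 and 84 bp. The TOP translation factor list lay nearest, with 11.5 and 94.5 bp. With the widest cluster of each gene the medians of the ribosomal protein genes were 8 and 107 bp.

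**Figure D2:**
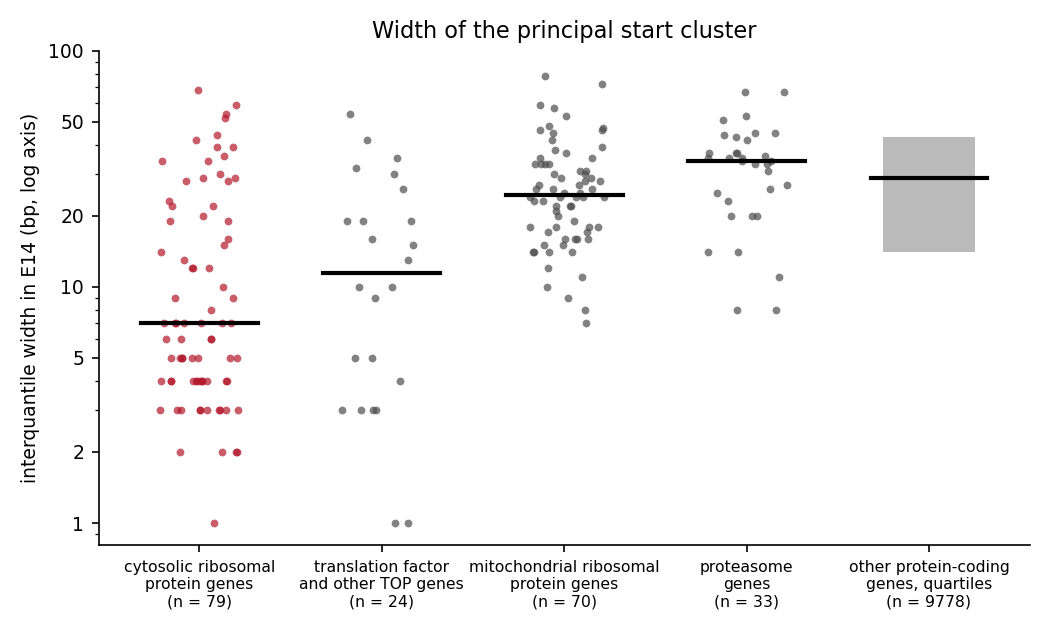
Interquantile width of the principal start cluster in E14 (bp, log axis), 1 point per gene, with medians as black lines, and for other protein-coding genes a grey bar from the lower to the upper quartile. The 79 ribosomal protein genes had a median of 7 bp and ran from 1 to 68 bp, and the other coding genes had a median of 29 bp.

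The narrowest principal cluster was that of Rps12, a small-subunit gene on the minus strand of chromosome 10 (mm10, 23785183 to 23787275). Its interquantile region was a single base, at 23787200, in E14, A1 and C7 alike, inside a cluster of 115 bp. Widths of 2 bp were found in all 3 lines at Rpl10-ps3, Rpl27, Rps12-ps3 and Rps27rt, where the whole cluster was also 2 bp long. Rpl10-ps3, Rps12-ps3 and Rps27rt are named as copies of Rpl10, Rps12 and Rps27. Only uniquely mapped reads were kept by the authors, so a read that matched a gene and its copy equally was counted at neither, and values of such pairs are uncertain. Rpl27 had a wider cluster, of 174 bp with an interquantile width of 27 bp in each line and a TOP start, 123 bp into the gene. Another 10 genes had 3 bp in E14, among them Rps2, Rps20, Rpl27a, Rplp0 and Rpsa, inside clusters of 109, 190, 130, 39 and 79 bp.

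At the other end, Rpl29 had an interquantile width of 68 bp in E14 and 69 bp in both clones. Rpl30 had 59, 58 and 48 bp in E14, A1 and C7, Rps25 had 54, 54 and 53 bp, and Rpl31 had 44, 43 and 41 bp. A wide region did not go with the lack of a TOP tract in every case, as Rpl30, Rps25 and Rpl31 had TOP starts with runs of 8, 11 and 8 pyrimidines. The widest member was thus 68 times the narrowest, although their whole clusters measured 87 and 115 bp.

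Rplp0, Rplp1 and Rplp2 form the stalk that recruits translation factors to the ribosome. Rplp0 had an interquantile width of 3 bp in each line. The cluster of Rplp1 at its annotated start had 4, 6 and 4 bp in E14, A1 and C7, and a second start cluster 74 bp downstream had 25 bp in each. The cluster of Rplp2 nearest its annotated start had 30 bp in each line, and its widest, 281 bp downstream of the gene start and with a TOP start, had 12, 9 and 7 bp. Rpsa, which also serves as a laminin receptor, had 3, 3 and 4 bp. Rps27a is made as a fusion with ubiquitin and had 6, 7 and 6 bp and a TOP start. Fau, which encodes a ribosomal protein fused to a ubiquitin-like protein and was outside the gene rule, also had a TOP start, with 19, 43 and 36 bp in E14, A1 and C7. Among the paralogues Rpl22l1 was the narrowest, with 4 bp in each line. Rps27l had 36, 40 and 41 bp, Rpl39l had 39, 38 and 42 bp, Rpl10l had 29, 37 and 24 bp, Rpl36al had 23, 24 and 25 bp and Rpl7l1 had 19, 21 and 22 bp.

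The dominant TSS of the principal cluster was the same base in all 3 lines in 72 of 79 ribosomal protein genes (91.1%, interval 82.8 to 95.6%), against 73.5% of all protein-coding genes with a principal cluster in each line. Among other coding genes with an interquantile width of at most 10 bp in E14 it was 73.7% of 1963. The share was 79.7% of 69 mitochondrial ribosomal protein genes and 97.0% of 33 proteasome genes. E14 and A1 shared the base in 74 of the 79 genes, and so did E14 and C7, against 81.2% and 83.1% of all coding genes. Within 5 bp, 78 of the 79 genes were alike in all 3 lines, against 82.3%. The bounds of the principal cluster were identical between the lines in 97.5% of ribosomal protein genes and 96.9% of all coding genes. The authors aggregated clusters across replicates, and with bounds this often identical, the presence of a cluster in 3 lines was not read as 3 separate calls.

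In both clones the dominant TSS differed from that of E14 at 3 genes (3.80%, against 9.24% of all coding genes), and at each of them the clones shared the new base, as in 6.50% of all coding genes. At Rpl29 it lay 3 bp upstream, and at Rps16 and Rps3 it lay 1 bp upstream. The start of Rps16 was a TOP start in each line, with a run of 7 pyrimidines in E14 and 8 in the clones, and that of Rps3 likewise with 10 and 11. Rpl29 could not be read. The other 4 genes with a difference moved in 1 clone alone. Rpl23 and Rplp1 moved by 1 bp downstream in C7, and Rpl18 moved by 2 bp upstream in A1, where it had no TOP start. At Rpl41 the cluster nearest an annotated start was another one in A1, at -202 bp.

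Interquantile widths were close between lines. The width was the same in all 3 lines in 33 of 79 genes (41.8%, against 38.0% of all coding genes), and differed from E14 by at most 2 bp in both clones in 60 of 79 (75.9%, against 62.2%). It was wider than in E14 in both clones in 13 genes and narrower in both in 7. The corresponding shares of 16.5% and 8.86% stood beside 21.1% and 6.18% of all coding genes, and the medians of 7 bp were equal in the 3 lines. In A1 26 genes were wider and 10 narrower than in E14, against 33.3% and 15.3% of all coding genes, and in C7 22 were wider and 14 narrower, against 31.7% and 15.2%. Rpl36a, chosen after its values were seen, differed most clearly in both clones, with 7 bp in E14 and 16 bp in A1 and in C7. Rpl37a had 20 bp in A1 but 7 bp in E14 and C7, and Rps16 had 17 bp in C7 but 28 bp in E14 and A1.

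**Figure D3:**
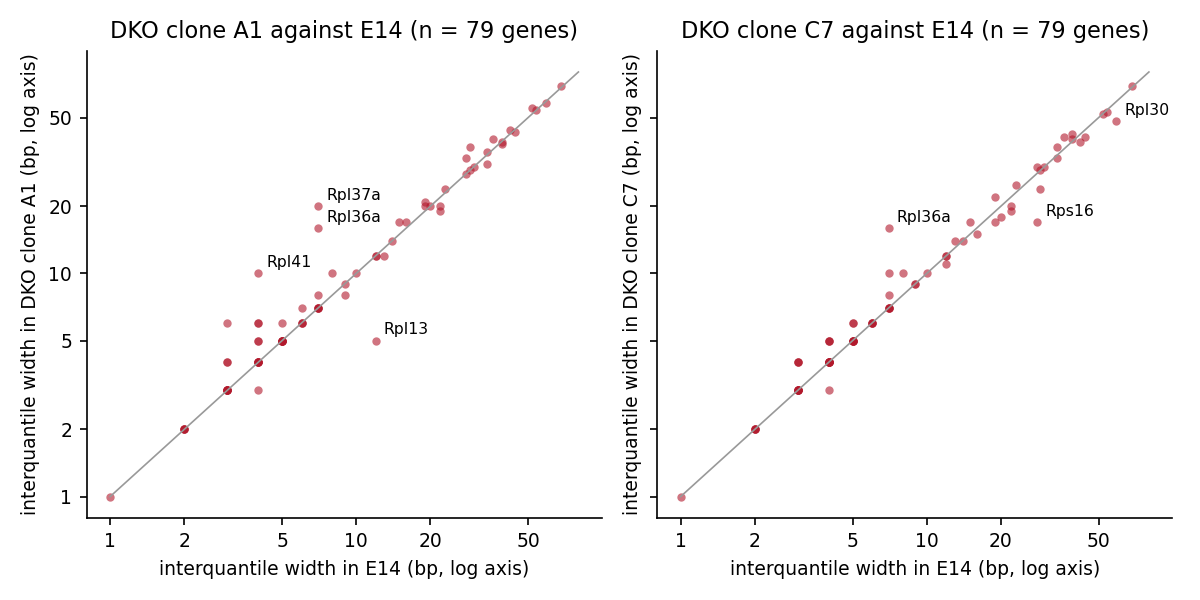
Interquantile width of the principal cluster in DKO clone A1 (left) and DKO clone C7 (right) against E14 (bp, log axes), 1 point per ribosomal protein gene (n = 79), with a line of equal widths. Most points lie on or next to the line, and labels mark genes named for their distance from it, such as Rpl36a with 7 bp in E14 and 16 bp in both clones.

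Internal clusters were frequent in the ribosomal protein genes. In E14, 281 internal clusters lay in 75 genes, which is 86.2% of the 87 genes with a cluster, against 42.0% of all protein-coding genes with a cluster. There were 276 internal clusters in A1, also in 75 genes, and 280 in C7, in 74 genes, against 42.2% and 42.0% of all coding genes with a cluster. These counts include clusters that were the widest of their gene. Without the widest cluster of each gene, 271 remained in E14, 266 in A1 and 270 in C7. At Rps3a1 the only cluster, a TOP start 109 bp from the gene start, counted as internal. The shares of genes and the densities given here include such clusters. The median was 3 internal clusters per gene with a cluster, and 18 genes had at least 5. With the start window widened from 100 to 500 bp, 200 clusters in 57 genes remained in E14 (65.5% of genes with a cluster, against 29.2%, and against 29.3% in each clone). Since these genes are short, the density was also computed per length of exon. Exons of ribosomal protein genes held 2.63 internal clusters per kb in E14, against 0.189 in other coding genes, 0.172 in mitochondrial ribosomal protein genes and 0.395 in proteasome genes. The TOP translation factor list had 2.25 per kb. Whether the density follows the level of the transcripts was not tested, since the tracks hold no level.

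Of the 281 internal clusters, 226 (80.4%) began, by the dominant TSS, within coding sequence, 29 (10.3%) in a 5' UTR, 2 in a 3' UTR, 12 in an exon of a noncoding transcript and 12 in an intron. In other coding genes 33.7% of internal clusters lay in coding sequence and 32.7% in introns. With the 500 bp window the coding share was 93.0% against 39.6%. A high coding share was not particular to the ribosomal protein genes. With the 100 bp window it was 69.7% of 145 internal clusters in the TOP translation factor list and 66.7% of 33 in proteasome genes. In mitochondrial ribosomal protein genes it was 19.4% of 36. Many ribosomal protein genes host small nucleolar RNAs (snoRNAs) in their introns, as 30 of the 91 did here, against 1.14% of other coding genes. Of the internal clusters, 3 began inside an annotated snoRNA or small Cajal body RNA (1.07%), against 0.114% of those in other coding genes. Another 8 (2.85%) lay within 100 bp of a transcript start of another gene, against 4.45%. The internal clusters had a median interquantile width of 11 bp and a median whole width of 15 bp, against 7 and 8 bp for internal clusters of other coding genes. The principal clusters of the ribosomal protein genes had 7 and 104 bp, so that only the whole width of the internal clusters was shorter than theirs. Apart from the widest cluster of each gene, their dominant TSSs lay a median of 1072 bp downstream of that widest cluster (quartiles 426.5 and 1792 bp).

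The 2 genes with the most internal clusters were Rpl6 and Rps4x, with 10 in each line. Rpl13a and Rpl4 had 9 in each line. At Rpl6, on the plus strand of chromosome 5, the principal cluster with its TOP start was followed by 1 internal cluster in an exon of a noncoding transcript and 9 in coding sequence. At Rps4x, on the minus strand of chromosome X, all 10 lay in coding sequence. In 12 genes with a cluster no internal one was found in E14. Of these, Rps10 and Rps27 had a single cluster, Rpl29, Rpl31 and Rps15a had 2 each, and the rest were the paralogues Rpl10l, Rpl39l and Rpl7l1 and the copies Rpl10-ps3, Rpl9-ps6, Rps12-ps3 and Rps27rt.

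**Figure D4:**
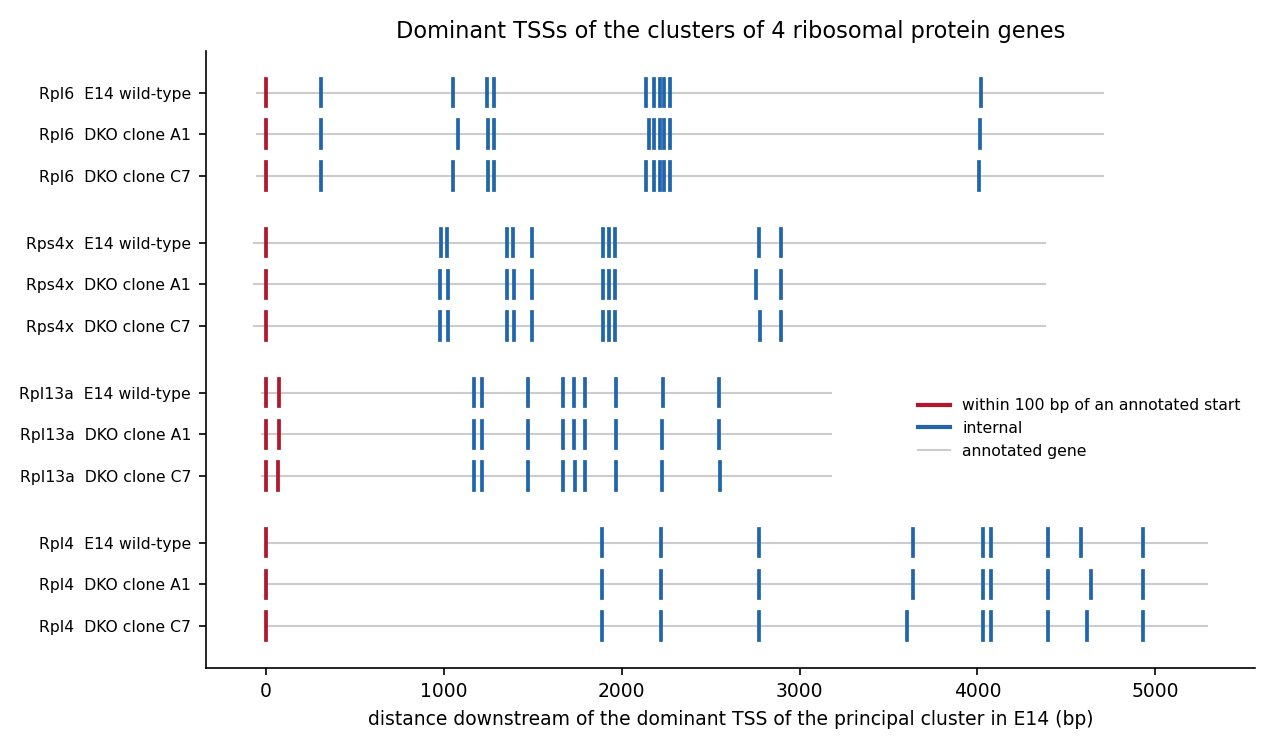
Dominant TSSs of all clusters of 4 ribosomal protein genes named for their many internal clusters, as ticks at their distance (bp) downstream of the dominant TSS of the principal cluster in E14, for E14 and DKO clones A1 and C7. Each gene had the same number of internal clusters in the 3 lines, 10 at Rpl6 and Rps4x and 9 at Rpl13a and Rpl4, while single dominant TSSs shifted within their cluster.

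The internal clusters had other bases at their start than the principal clusters. In the transcript, the dinucleotide GG stood just before the dominant TSS in 133 of the 226 E14 clusters in coding sequence (58.8%, interval 52.3 to 65.1%), in 54.8% of 221 in A1 and in 57.3% of 225 in C7. Of all 46774 positions in the longest coding sequence of each ribosomal protein gene, 7.72% followed a GG. Among principal clusters it was found before 1 of 69 TSSs (1.45%). Among the 126 clusters whose interquantile region spanned 11 bp or more, the share was 58.7%. Internal clusters of other genes had it too, since 63.1% of 4154 in coding sequence had GG at the same place. Further on, the bases AG stood at positions 4 and 5 in 27.0% of the 226 clusters, in 24.0% of the 4154 of other genes and at 8.79% of all coding positions of the ribosomal protein genes. These dinucleotides were chosen after the bases had been seen. A TOP start was found in 9 of the 269 internal clusters that could be read in an exon (3.35%), against 2.50% of 8281 in other genes. A purine after a pyrimidine was found in 9.70% of 268, against 33.8% of 8183 internal clusters in other genes. The clusters of other genes in this last comparison lay less often in coding sequence. Within coding sequence alone, the base just before the TSS was a pyrimidine in 10.2% of the 226 clusters and 19.6% of the 4154.

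The 9 internal clusters of Rpl6 in coding sequence are shown from the first to the last, named by the distance of their dominant TSS from the gene start. Each line has 10 bases before the TSS and 15 from it as in the transcript, with a GG before the TSS in capitals.
Rpl6 1104: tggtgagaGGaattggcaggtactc
Rpl6 1295: aagaaaaaagagaaggtccttgcta
Rpl6 1334: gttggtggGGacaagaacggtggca
Rpl6 2192: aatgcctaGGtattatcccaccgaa
Rpl6 2235: ctgagccacggcaagaagcccttca
Rpl6 2267: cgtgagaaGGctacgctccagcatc
Rpl6 2290: tcactcccGGaactgtcctgatcat
Rpl6 2325: cgccacagGGgcaagagagtggttt
Rpl6 4071: tcaggagggcgagatcttcgacaca
None of them began with the C and pyrimidine run of the principal cluster of the gene.

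Internal clusters were also listed in the clones, but not always with the same dominant base. Of the 272 E14 internal clusters that overlapped one in both clones, 254 (93.4%, interval 89.8 to 95.8%) had identical bounds in each line, against 98.9% in other coding genes. Of the same 272, 162 (59.6%, interval 53.6 to 65.2%) had the same dominant TSS. The latter share was 62.6% in other coding genes.

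No internal cluster of a ribosomal protein gene was present in both clones and absent from E14 by the rule of 1 bp overlap, and over all coding genes 72 of 12688 (0.567%) were. Conversely, 2 of the 281 were present in E14 and absent from both clones, against 0.198% of all 12607 internal clusters. One was in Rpl28, on the plus strand at chr7:4793599-4793609, in coding sequence 726 bp from the gene start, with an interquantile width of 11 bp. The other was the only internal cluster of Rps16, on the plus strand at chr7:28352246-28352247, 2 bp wide, in coding sequence at 1594 bp. With A1 alone, 0 clusters were gained and 7 lost relative to E14, against 1.20% and 0.698% over all coding genes. With C7 alone, 2 were gained, at Rpl10a and Rps13, and 4 lost, against 1.13% and 0.643%. When only the same dominant TSS counted as shared, 34 of the 276 in A1 were also in C7 and not in E14 (12.3%, against 9.72% over all coding genes), and 60 of the 281 in E14 were in neither clone (21.4%, against 12.4%). The 2 gained in C7 were 1 bp wide. Changes in the signal of existing clusters could not be measured from these tracks.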

How the data were processed

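Nuclear RNA of 8 libraries was converted to CAGE-seq libraries without PCR. Per the paper's methods, the authors mapped reads to mm10, kept uniquely mapped reads, and called tag clusters with CAGEr after power-law normalization. The submitters' processing notes list STAR 2.4.2a, SAMtools 1.3 and bedtools 2.17.0. Clusters were aggregated across replicates, and the signal needed to list one is not given in the sources used here. The deposited table holds positions (other values than counts or levels), 1 track per line. Shares and medians came from scripts in Python 3.11.15 (SciPy 1.17.1, NumPy 2.4.6, Matplotlib 3.10.9 for figures). The annotation was GENCODE M21, on the same assembly, GRCm38. Functions were tested on simulated clusters at known positions. No p-value was calculated, because replicates were merged. The genes and lists were chosen with earlier results of these data known. Genes were named as members without a start cluster, the 5 narrowest, the 5 widest and the 5 with most internal clusters in E14 (ties by symbol), members moved, gained or lost in both clones, paralogues, stalk genes, Rpsa, Rps27a with Fau, and the knocked-out genes, and other genes were named after their values were seen. Some genes under this rule are not reported here. Promoter motifs are not reported, since promoter sequence was found for 65 of 91 genes (71.4%), below the 80% needed. Alternatives were the start window, transcripts used, principal cluster, run length, minimum width, strand, overlap rule and each clone alone. Those using the widest whole cluster, leaving out the copies, or adding RefSeq promoters were chosen after seeing the data.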

Additional observations from a re-analysis of the deposited data

How the results depend on the processing

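Of the alternative values, 47 stayed within the counting interval of the reported share or within 1.5 times the reported count or width, and 23 did not. The share of genes with a start cluster, 86.8% in each line, was 95.6% in each with a start window of 500 bp and 94.5% in each with the starts of all transcripts. The median width of 7 bp in each line was 104, 101 and 104 bp in E14, A1 and C7 for whole clusters, and 10, 12 and 11 bp for the start cluster with the widest interquantile region. The share of TOP starts with at least 6 pyrimidines after the C was 58.8%, 59.7% and 57.4% in E14, A1 and C7. The share of genes with an internal cluster was 82.4%, 82.4% and 81.3% of 91 genes, and 62.6%, 61.5% and 61.5% with a start window of 500 bp. The share of genes with the dominant TSS at the same base, 91.1%, was 98.7% when up to 5 bp were allowed. Internal clusters present in both clones and not in E14 numbered 34 when only the same dominant TSS counted as shared, and 2 with C7 alone. Those in E14 alone numbered 60 by the same dominant TSS, 7 with A1 alone and 4 with C7 alone. The comparison of widths with other coding genes turned in direction between the 2 measures. In E14 the median interquantile width was 7 against 29 bp, and the median whole width was 104 against 53 bp. No paired analysis was possible because the replicates of each line are merged in the deposited tracks, and for the same reason no replicate could be left out. Depth limits are unknown, since the tracks hold no counts.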

Other observations

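The TOP translation factor list differed from the ribosomal protein genes in the clones. Its interquantile regions were wider than in E14 in both clones in 9 of 24 genes (37.5%) and narrower in both in 0, with medians of 11.5 bp in E14, 17.5 bp in A1 and 17 bp in C7, while among all coding genes 21.1% were wider in both and 6.18% narrower. The dominant TSS was at the same base in all 3 lines in 22 of these 24 genes (91.7%). The list was not chosen for its width, but with earlier results of these data known, and the difference from the ribosomal protein genes was not tested.

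Annotated pseudogenes named for a ribosomal protein gene also held clusters, in 29 of 294 in E14 (9.86%), 29 in A1 and 31 in C7, against 354 of 13523 pseudogenes of all kinds in E14 (2.62%). Only uniquely mapped reads were kept.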
